A study of Mus musculus with 6 samples.

Results

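The mitosis and cytokinesis genes are 46 genes that encode the spindle, the kinetochore, the mitotic kinases, the spindle checkpoint and the division furrow, of 21956 genes in the table. They were matched by gene symbol to a list that was drawn up with results of the same knockout-against-control comparison known, so their lower level in the knockout is how they were chosen and is given as a description, with no test. All 46 were found, and all 46 passed the filter on low counts that left 13197 genes. Liver RNA came from 3 mice that lack Sting in endothelial cells, of genotype Stingfl/fl Cdh5-Cre+, and from 3 littermates without Cre, of genotype Stingfl/fl Cdh5-Cre-, called knockout and control here. The floxed alleles were thus shared by both groups, and Cre, driven from the endothelial Cdh5 promoter, was present in the knockout group only, so that an effect of Cre and one of the deletion cannot be told apart. Chow was replaced at 8 weeks of age in every mouse by CDAHFD, a high-fat diet that lacks choline and brings on steatohepatitis, for 10 weeks.

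Cells that enter mitosis first raise cyclin A2 and the B-type cyclins, which switch on the kinase CDK1. The spindle then captures chromosomes at their kinetochores, the spindle checkpoint holds back the anaphase-promoting complex (APC/C) until all are attached, and a contractile ring divides the cell. Most of these genes are transcribed together late in the cell cycle under the MuvB complex, B-MYB and FOXM1, and they are silenced in resting cells by the DREAM complex. In adult liver most hepatocytes rest, whereas injured liver can hold dividing hepatocytes, bile duct cells, macrophages, stellate cells and endothelial cells.

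Promoters of late cell cycle genes are known for the CCAAT box, bound by NF-Y, and for the cell cycle genes homology region (CHR), through which MuvB binds DNA. RefSeq promoters on GRCm38.p6, running from 250 bases before to 50 bases after the gene start, were matched for 40 of the 46 genes. The promoters of 6 genes are printed, each the gene of highest level in its step of division that holds both elements. They belong to the cyclin-dependent kinase Cdk1 (chr10:69352863-69353162, minus strand), the kinase Plk1 (chr7:122159185-122159484, plus strand) and the ubiquitin enzyme Ube2c (chr2:164769679-164769978, plus strand). The others are the spindle protein Ckap2 (chr8:22185770-22186069, minus strand), the midzone protein Prc1 (chr7:80294201-80294500, plus strand) and the topoisomerase Top2a (chr11:99024140-99024439, minus strand). Capitals mark CCAAT and the 2 CHR spellings TTTGAA and TTCGAA on either strand, so that ATTGG and TTCAAA are the same elements read on the other strand; neighbouring or overlapping elements join into longer capital runs.
Cdk1: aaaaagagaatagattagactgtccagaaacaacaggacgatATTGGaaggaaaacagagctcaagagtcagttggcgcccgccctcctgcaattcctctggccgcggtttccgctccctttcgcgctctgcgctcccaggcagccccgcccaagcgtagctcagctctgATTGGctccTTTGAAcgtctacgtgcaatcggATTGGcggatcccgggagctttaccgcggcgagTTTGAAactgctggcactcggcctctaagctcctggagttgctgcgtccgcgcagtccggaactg
Plk1: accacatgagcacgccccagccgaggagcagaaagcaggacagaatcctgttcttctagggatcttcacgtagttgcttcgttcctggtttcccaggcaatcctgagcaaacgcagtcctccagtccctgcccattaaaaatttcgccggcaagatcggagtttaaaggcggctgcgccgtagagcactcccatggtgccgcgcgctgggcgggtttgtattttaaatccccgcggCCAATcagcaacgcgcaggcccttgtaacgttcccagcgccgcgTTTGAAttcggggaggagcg
Ube2c: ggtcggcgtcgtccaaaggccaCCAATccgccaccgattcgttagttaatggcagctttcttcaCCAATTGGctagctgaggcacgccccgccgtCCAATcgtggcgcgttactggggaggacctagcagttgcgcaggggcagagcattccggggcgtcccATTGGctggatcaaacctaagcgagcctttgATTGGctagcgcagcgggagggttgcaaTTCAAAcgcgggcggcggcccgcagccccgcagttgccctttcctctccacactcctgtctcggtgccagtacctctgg
Ckap2: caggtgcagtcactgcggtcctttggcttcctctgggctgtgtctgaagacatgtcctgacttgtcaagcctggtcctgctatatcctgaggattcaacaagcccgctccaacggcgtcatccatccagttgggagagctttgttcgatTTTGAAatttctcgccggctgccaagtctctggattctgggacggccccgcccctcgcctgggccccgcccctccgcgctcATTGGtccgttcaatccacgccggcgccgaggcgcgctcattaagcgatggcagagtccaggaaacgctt
Prc1: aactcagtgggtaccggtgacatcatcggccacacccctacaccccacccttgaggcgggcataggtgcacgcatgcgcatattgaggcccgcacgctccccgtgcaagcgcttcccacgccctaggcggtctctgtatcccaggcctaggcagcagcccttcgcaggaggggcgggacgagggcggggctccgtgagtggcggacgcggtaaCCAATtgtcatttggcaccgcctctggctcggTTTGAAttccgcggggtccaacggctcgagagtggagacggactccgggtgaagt
Top2a: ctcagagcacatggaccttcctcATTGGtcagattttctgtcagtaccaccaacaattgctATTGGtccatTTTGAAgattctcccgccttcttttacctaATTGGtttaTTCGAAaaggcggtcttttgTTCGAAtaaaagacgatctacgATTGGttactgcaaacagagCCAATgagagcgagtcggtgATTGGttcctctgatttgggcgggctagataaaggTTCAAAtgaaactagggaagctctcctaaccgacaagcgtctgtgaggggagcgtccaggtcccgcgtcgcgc
In Cdk1 the nearer of 2 CHR spellings began 15 bases before the start, and in Top2a there were 6 CCAAT boxes and 4 CHR spellings. Ube2c held 6 CCAAT boxes and 1 CHR spelling, and Plk1, Ckap2 and Prc1 held 1 of each. The windows around the start were chosen after the matches were seen.

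These elements were common among the 40 promoters. CCAAT was found in 31 of 40 genes (77.5%), against 42.8% of the 10320 tested genes that have a promoter of the same length in the RefSeq table. TTTGAA or TTCGAA was found in 31 of 40 (77.5%), against 16.8%. Both were present in 28 of 40 (70%), against 6.88%. The palindrome TTCGAA reads the same on both strands and was counted once. Matches to the CHR spellings lay close to the gene start, within 30 bases before to 20 after it in 20 of 40 genes (50%), against 2.53% of tested genes. The E2F motif of the S-phase promoters, TTTCGCGC, was found in 1 of 40 genes (2.5%) and in 0.707% of tested genes, and GCGGGAA in 0 of 40 and in 9.3%; none of these spellings can hold another of them whole, though neighbours may share bases. The S-phase genes described further on held CCAAT in 26 of 40 promoters (65%), also above the 42.8% of tested genes. They held TTTGAA or TTCGAA in 9 of 40, TTTCGCGC in 9 and GCGGGAA in 16. Both CCAAT and a CHR spelling were present in 6 of 40 (15%). The other mitosis genes, also described further on, held CCAAT in 65.3% of 49 promoters, a CHR spelling in 61.2% and both in 42.9%. A match is a description of the letters, not of a bound site.

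**Figure D1:**
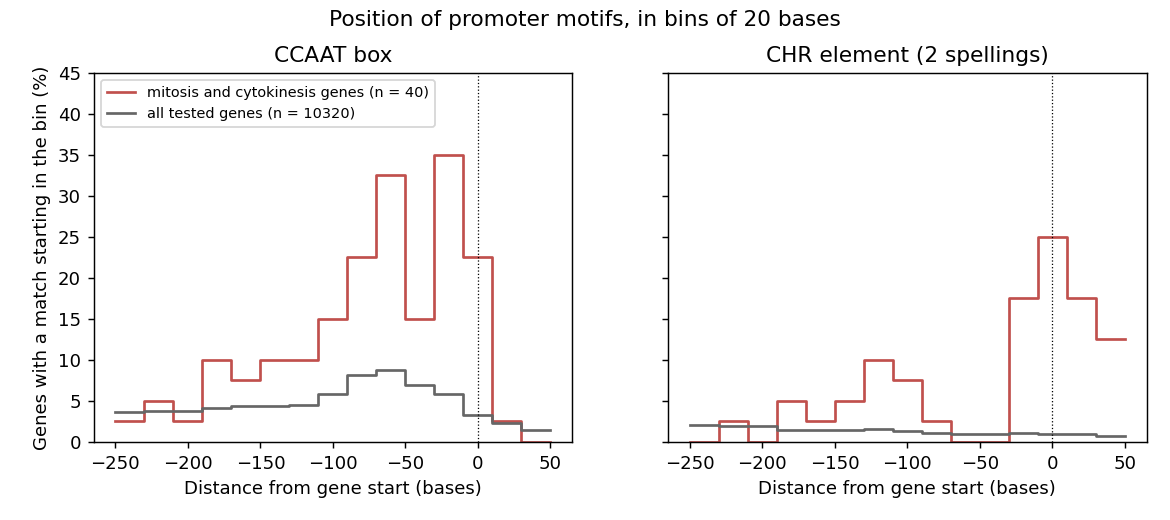
Position of CCAAT boxes (left) and CHR spellings (right) from the gene start in bases, as the percentage of genes with a match that starts in each bin of 20 bases; red is the 40 mitosis and cytokinesis genes with a promoter, grey the 10320 tested genes. CHR spellings were found in 25% of the 40 genes in the bin from 10 bases before to 9 after the start, against 0.988% of tested genes.

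The libraries held from 18528915 to 20414466 counts in the knockout and from 16704664 to 21025461 in the control. Sinusoidal endothelial cells stand in the labels as the cell type beside liver as the tissue, but hepatocyte markers were abundant: the 12 hepatocyte markers summed to between 157000 and 175000 TPM (the authors' deposited unit, scaled by gene length and library) in knockout livers and between 125000 and 156000 TPM in control livers. The 12 endothelial markers summed to 383 to 401 TPM in knockout livers and 325 to 388 TPM in control livers. For Sting1, the targeted gene, counts were 106, 114 and 80 in knockout libraries, against 240, 365 and 226 in controls, so that the groups did not overlap. Control replicate 2 stood apart. The trimmed mean of M-values (TMM) scaling factor, which corrects for library composition, was 1.26 in control replicate 2 and between 0.922 and 1.01 in the other 5 libraries.

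All 46 genes were lower in the knockout, with log2 fold changes from -2.37 to -0.46 and a median of -1.39. The median of all tested genes was 0.01, and 48.8% of them were below 0. At a log2 fold change of -1 or lower stood 37 of the 46, where 3.45% of all tested genes did. None of the 46 passed Benjamini-Hochberg adjustment in edgeR's quasi-likelihood test over all genes, where 0% of all genes did (lowest adjusted p, 0.357). Lower with an unadjusted p under 0.05 were 44 of 46, against 7% of all genes (3.75% were higher), the exceptions being Mad2l1 and Ndc80. The 3 knockout libraries lay below the 3 control libraries for 35 of 46, against 9.14% of all genes; the reverse held for 7.25%. DESeq2 called 21 of the 46 as lower after adjustment, against 0.629% of all genes (0.273% were called higher), and 44 of 46 before it, against 7.16%, and limma-voom called 0, against 0%. Since the list was drawn up from this comparison, these counts describe the choice and support nothing. Reads of 8 of the 46, Ccna2, Cdc20, Ube2c, Cdca8, Kif4, Nusap1, Kif20a and Prc1, may be mixed with those of an overlapping gene on the other strand, as the use of strand in counting is not known. In whole liver, fewer dividing cells and less RNA per dividing cell cannot be told apart.

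**Figure D2:**
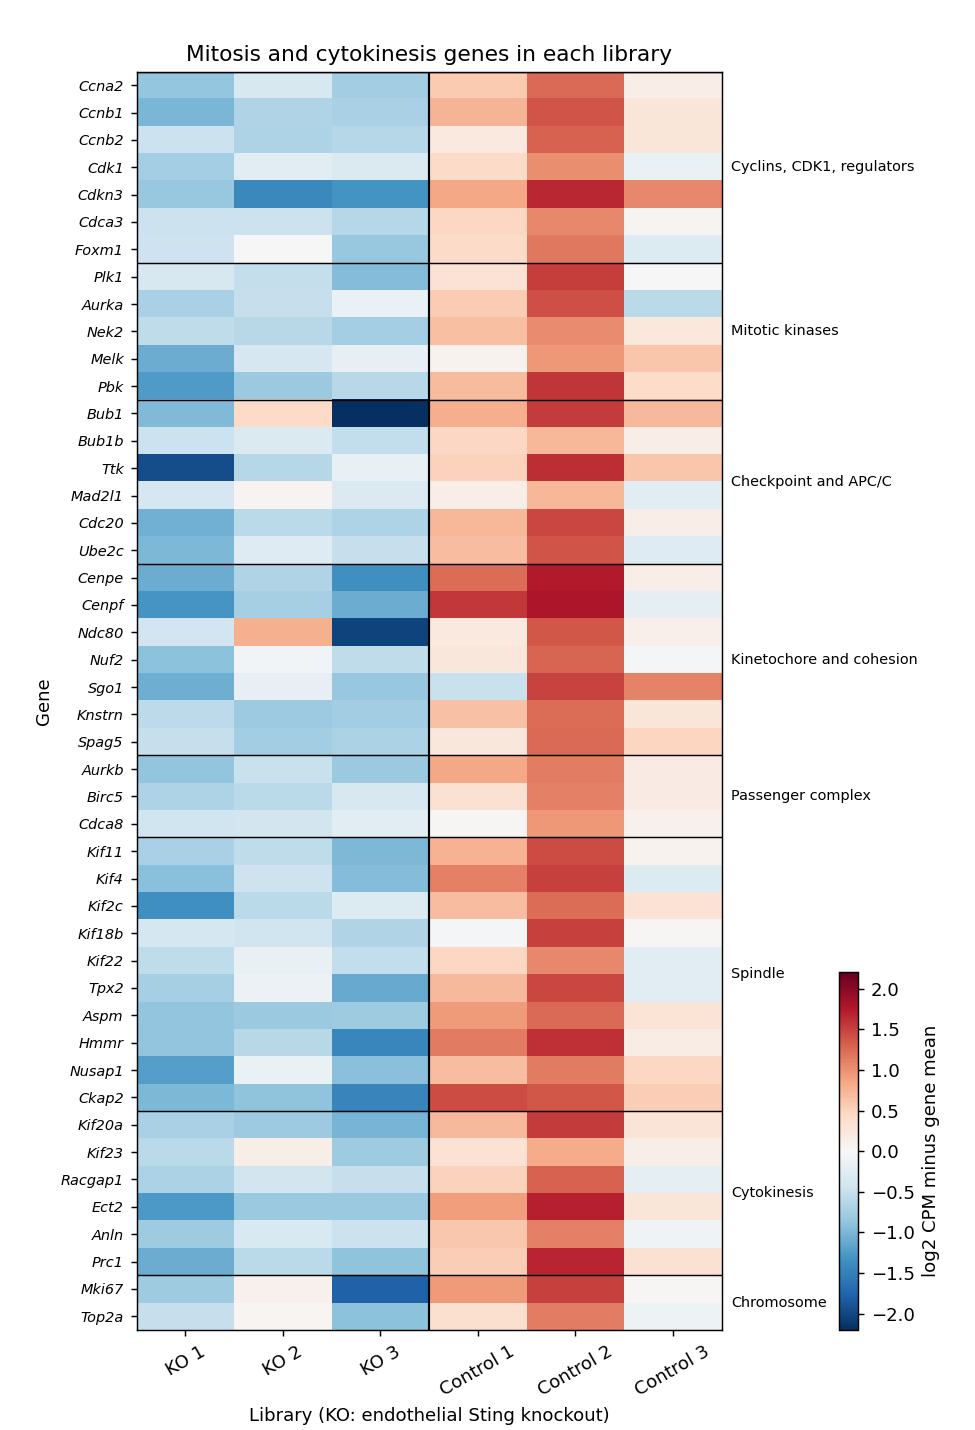
Level of each of the 46 genes (rows, grouped by role) in each library (columns) as log2 CPM (counts scaled to library size) minus the gene's mean over the 6 libraries; blue is below and red above that mean. Control replicate 2 was the highest of the 6 libraries for 45 of the 46 genes, against 25.3% of all tested genes and 75.4% of the 57 other mitosis genes described below.

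The size of the difference depended on the control library it was set against. Summed over the 46 genes, the level was 93.8, 118 and 98.8 TPM in the knockout livers, against 256, 543 and 181 TPM in the controls, replicates 1 to 3 in order. All 3 knockout sums lay below the lowest control sum, that of control replicate 3. The median over the genes of the ratio to the knockout mean CPM was 2.38 for control replicate 1, 3.77 for control replicate 2 and 1.76 for control replicate 3. Without control replicate 2 the median log2 fold change was -1.06, and all 46 genes stayed below 0. The medians of the 8 roles then ran from -1.22 for spindle genes to -0.79 for the passenger complex, and those of the cyclins and of the mitotic kinases moved most, to -0.83 and -0.85. In that comparison the groups did not overlap for 35 of the 46, against 12.7% of all genes, which 2 control libraries make easier to reach.

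Within the controls the genes varied together. The order of control replicate 2 over 1 over 3 held for 37 of 46 genes (80.4%), against 21% of all tested genes. The other 9 were Ccnb2, Cdkn3, Melk, Ttk, Sgo1, Spag5, Cdca8 and Kif18b, in which control replicate 3 stood above replicate 1, and Ckap2, in which control replicate 1 was the highest. Among the knockout livers, replicate 2 was the highest for 30 of 46 genes (65.2%), against 34.5% of all genes. Lists described further on shared these orders in part. The control order held for 64.9% of other mitosis, 47.1% of condensin and cohesin, 47.4% of tubulin, septin and actomyosin and 12.2% of S-phase genes. Knockout replicate 2 was the highest knockout library for 38.6%, 76.5%, 73.7% and 49% of these lists in turn. The median SD of log2 CPM was 0.26 within the knockout and 0.60 within the control group, where 5197 genes in the same range of levels had 0.29 in each group. These orders are descriptions, since the same libraries made up the comparison that was known when the genes were chosen.

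**Figure D3:**
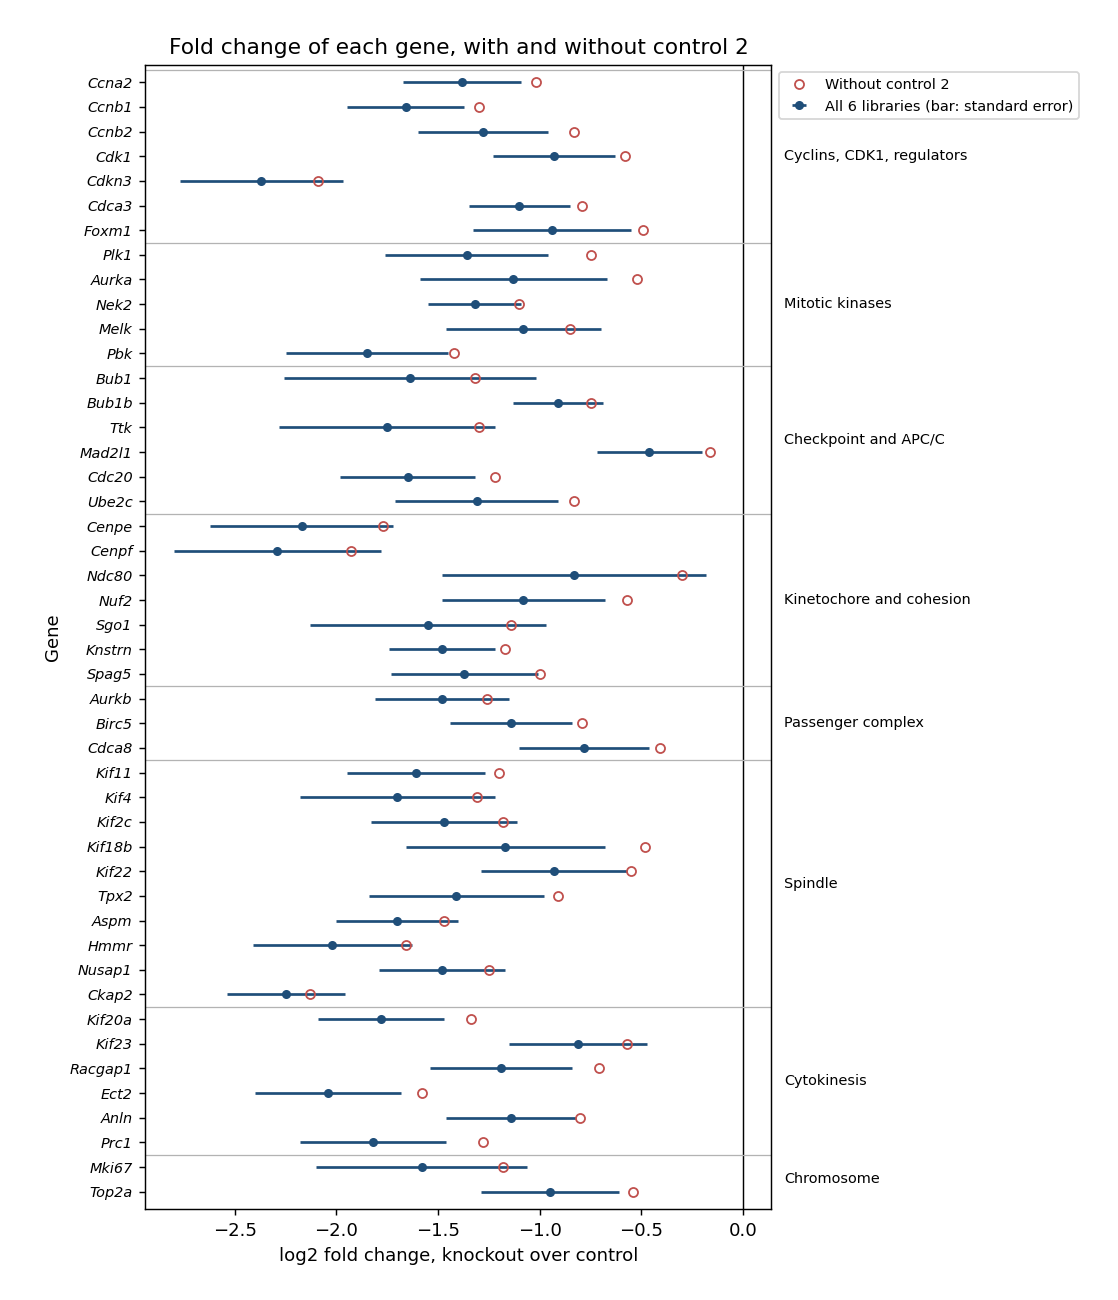
Log2 fold change of knockout over control for each gene, from edgeR with all 6 libraries (filled, with its standard error) and without control replicate 2 (open). Every open point lies below 0, from -2.13 for Ckap2 to -0.16 for Mad2l1.

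Among the cyclins, their kinase and its regulators, 7 of 7 were lower, with a median log2 fold change of -1.28. Cdk1, the kinase that drives entry into mitosis, had 4.89, 7.06 and 6.59 CPM in the knockout and 11.1, 16.7 and 7.47 CPM in the control libraries. The groups did not overlap, but the gap between the highest knockout and the lowest control library was small, and the log2 fold change was -0.93 (standard error 0.30). Ccnb1, which encodes cyclin B1, had 3.88, 4.93 and 4.78 CPM in the knockout against 13.1, 20.5 and 9.42 CPM in the control, a wide gap. Its partner genes Ccnb2 and Ccna2, cyclins B2 and A2, had log2 fold changes of -1.28 and -1.38. Cdkn3 (ENSMUSG00000037628, chr14:46760541-46771669 on GRCm38), a phosphatase that removes the activating phosphate of cyclin-dependent kinases, had the most negative log2 fold change of the 46, at -2.37 with a standard error of 0.40. It was a gene of low level: counts were 13, 8 and 9 in knockout libraries, against 44, 81 and 52 in controls, or 0.691, 0.459 and 0.495 CPM against 2.22, 3.86 and 2.54 CPM. Cdca3, an adaptor that promotes the destruction of the CDK1 inhibitor WEE1, had 6.22, 6.25 and 5.61 CPM in the knockout and 11.9, 17.9 and 9.03 CPM in the control. The transcription factor Foxm1 had 2.77, 3.79 and 2.14 CPM in the knockout and 5.10, 8.52 and 3.07 CPM in the control. Here control replicate 3 lay within the knockout range, and without control replicate 2 the log2 fold change was -0.49 instead of -0.94.

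The mitotic kinases were lower in 5 of 5, with a median of -1.32. Nek2, which separates the centrosomes, had 5.58, 5.39 and 4.89 CPM in the knockout against 13.1, 16.9 and 9.66 CPM in the control, and its log2 fold change of -1.32 had a standard error of 0.23. The knockout libraries were almost level with each other, and each control library was clearly above them. Plk1, a kinase of centrosome maturation, checkpoint release and cytokinesis, had 3.56, 3.16 and 2.36 CPM in the knockout and 5.71, 13 and 4.54 CPM in the control. Control replicate 2 was more than the other control libraries together, and without it the log2 fold change of -1.36 was -0.75. Aurka, the spindle pole kinase, had 2.29, 2.64 and 3.41 CPM in the knockout and 5.56, 10.1 and 2.49 CPM in the control, so that control replicate 3 lay among the knockout libraries. Pbk, a kinase found mainly in dividing cells, had 0.851, 1.15 and 1.32 CPM in the knockout and 3.28, 6.05 and 2.68 CPM in the control, and its log2 fold change of -1.85 was the most negative of the kinases. Melk, another such kinase, had 0.904, 1.49 and 1.70 CPM in the knockout and 2.02, 3.71 and 2.93 CPM in the control. Neither overlapped, although Melk at -1.08 had the smallest difference of the 5.

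The spindle checkpoint and the APC/C arm that it restrains were lower in 6 of 6, with a median of -1.47. Cdc20, the activator of the APC/C, had 3.99, 5.51 and 5.17 CPM in the knockout and 13.8, 22.9 and 9.17 CPM in the control. Ube2c, the ubiquitin-conjugating enzyme of the APC/C and the gene with the highest mean level of the 46 at 16 TPM, had 3.30, 5.39 and 4.62 CPM in the knockout and 10.5, 17.0 and 5.37 CPM in the control. Knockout replicate 2 and control replicate 3 were at nearly the same level, so that the groups overlapped narrowly. Mad2l1 (ENSMUSG00000029910, chr6:66535390-66547220 on GRCm38), which encodes the checkpoint protein MAD2, had the least negative log2 fold change, at -0.46 with a standard error of 0.26. It had 7.45, 10.1 and 7.75 CPM in the knockout against 10.7, 16.0 and 8.25 CPM in the control, and the groups overlapped. Bub1b, which encodes the checkpoint protein BUBR1, had 3.51, 3.90 and 3.35 CPM in the knockout and 6.72, 8.05 and 5.42 CPM in the control, with no overlap. The checkpoint kinase Ttk had 0.319, 0.803 and 1.10 CPM in the knockout and 1.77, 3.81 and 1.90 CPM in the control, with a log2 fold change of -1.75. Bub1, a further checkpoint kinase, had -1.64 and was uneven among knockout libraries, at 12, 29 and 4 counts.

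Kinetochore and cohesion genes were lower in 7 of 7, with a median of -1.48. Cenpf, a large kinetochore protein, had 0.851, 1.26 and 0.989 CPM in the knockout and 6.16, 7.24 and 1.81 CPM in the control, and its log2 fold change was -2.29 (standard error 0.51). Control replicates 1 and 2 stood far above the rest, and control replicate 3 was near the knockout libraries. The kinesin Cenpe, which moves chromosomes to the spindle equator, had a log2 fold change of -2.17. Its levels were 0.851, 1.15 and 0.714 CPM in the knockout and 4.24, 6.05 and 2.00 CPM in the control. Knstrn, a protein of the spindle and kinetochore, had 4.95, 4.25 and 4.34 CPM in the knockout and 11.6, 17.2 and 8.88 CPM in the control. Spag5, its partner at the spindle, had a log2 fold change of -1.37. Nuf2 and Ndc80 are subunits of 1 complex that grips microtubules, with log2 fold changes of -1.08 and -0.83. Nuf2 had 1.60, 2.87 and 2.03 CPM in the knockout and 3.54, 7.24 and 2.93 CPM in the control, and did not overlap. Ndc80 overlapped, at 0.851, 1.95 and 0.275 CPM in the knockout and 1.31, 2.91 and 1.22 CPM in the control. Sgo1, the protector of centromeric cohesion, was the gene with the lowest mean level at 0.542 TPM, and it overlapped as well.

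The chromosomal passenger complex, which corrects faulty attachments and then moves to the midzone, was lower in 3 of 3. The groups did not overlap for these 3 genes, against 9.14% of all genes, and the genes were chosen for being lower. Its kinase Aurkb had 1.28, 1.66 and 1.32 CPM in the knockout and 4.19, 5.10 and 2.63 CPM in the control. Birc5, which encodes survivin, had 2.29, 2.41 and 2.86 CPM in the knockout against 4.6, 7.86 and 4.15 CPM in the control. Both separated cleanly. Cdca8, which encodes borealin, had 2.13, 2.18 and 2.42 CPM in the knockout and 2.93, 5.57 and 3.07 CPM in the control. Its log2 fold change was -0.78 with all libraries and -0.41 without control replicate 2.

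Spindle motors and assembly factors were lower in 10 of 10, with a median of -1.54. Ckap2, a microtubule-stabilising protein of the spindle, had 2.66, 2.87 and 1.92 CPM in the knockout and 14.2, 13.6 and 7.66 CPM in the control. It depended least on control replicate 2, with log2 fold changes of -2.25 (standard error 0.29) with all libraries and -2.13 without it. Hmmr, a spindle pole protein, had 2.34, 2.81 and 1.59 CPM in the knockout and 9.50, 13 and 4.78 CPM in the control. Kif11, the motor that pushes the spindle poles apart, and Aspm, which focuses them, had log2 fold changes of -1.61 and -1.70. Tpx2, the activator of Aurora A on the spindle, had 3.88, 5.85 and 2.97 CPM in the knockout and 10.5, 17.8 and 5.46 CPM in the control. Control replicate 3 lay just under knockout replicate 2, so that the groups overlapped. Kif22, a kinesin bound to chromosomes, had 2.02, 2.64 and 2.03 CPM in the knockout and 4.09, 6.19 and 2.49 CPM in the control, which overlapped, and a log2 fold change of -0.93. The other chromosome-bound kinesin, Kif4, had -1.70, the microtubule-depolymerising Kif2c and Kif18b had -1.47 and -1.17, and the microtubule bundler Nusap1 had -1.48. Kif18b had 1.06, 1.03 and 0.879 CPM in the knockout and 1.36, 3.95 and 1.42 CPM in the control, and without control replicate 2, which stood far above the rest, its log2 fold change was -0.48.

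Cytokinesis genes were lower in 6 of 6, with a median of -1.48. Ect2, the exchange factor that activates RhoA at the furrow, had 2.98, 4.07 and 4.07 CPM in the knockout and 13.6, 23.4 and 8.64 CPM in the control, with a log2 fold change of -2.04 and a standard error of 0.36. Kif20a, a midzone kinesin, had 5.42, 5.11 and 4.40 CPM in the knockout and 14.6, 25.8 and 10.9 CPM in the control. Prc1, which bundles the midzone microtubules, had 3.46, 4.93 and 4.01 CPM in the knockout and 10.8, 23.7 and 9.37 CPM in the control. For all 3 genes each control library stood above every knockout library, with control replicate 2 far above. Racgap1 and Kif23 form the centralspindlin complex that recruits ECT2, and they had log2 fold changes of -1.19 and -0.81. Kif23 had 1.81, 2.98 and 1.59 CPM in the knockout and 3.39, 4.81 and 2.98 CPM in the control, so that the highest knockout library met the lowest control library. Anln, the anillin of the contractile ring, had a log2 fold change of -1.14.

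The chromosome proteins Mki67 and Top2a overlapped between the groups. Mki67, which coats mitotic chromosomes and is the usual marker of dividing cells, had 6.75, 12.4 and 3.41 CPM in the knockout and 22.3, 33 and 11.9 CPM in the control. Top2a, which untangles sister chromatids, had 8.99, 13.1 and 6.81 CPM in the knockout and 16.2, 27.8 and 11.8 CPM in the control. In both, knockout replicate 2 was above control replicate 3. The means were 7.52 ± 4.54 CPM in knockout and 22.4 ± 10.6 CPM in control livers for Mki67 (SD, n = 3 each), and 9.63 ± 3.18 CPM in knockout and 18.6 ± 8.27 CPM in control livers for Top2a (SD, n = 3 each).

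The shares of the roles within the mitotic transcripts differed by a few percentage points. Spindle genes made up 11.5%, 12.2% and 10% of the summed TPM of the 46 in the knockout livers, against 14.8%, 12.8% and 12.4% in the controls, with no overlap. Cytokinesis genes made up 11.7%, 12.8% and 12.2% in knockout livers, against 14.6%, 15.4% and 13.7% in controls, again with no overlap. Cyclins and their regulators held 28.5%, 26.1% and 27.6% in knockout livers, against 25.2%, 24.8% and 26.3% in controls, which overlapped. The shares of the other 5 roles overlapped as well, so that 2 of 8 roles stood apart. These shares do not depend on how libraries are scaled, and their differences were not tested.

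Other genes of division stood below 0 in part. A list of 62 further mitosis genes was set down by function but, like the lists below, with earlier results of these data known. Of these, 57 passed the filter, with 51 below 0 and 6 above. Their median log2 fold change was -0.95, which was -0.53 without control replicate 2. None passed the adjusted test in edgeR, where 0% of all tested genes did. With an unadjusted p under 0.05, 30 were lower and 0 higher, and 23 stood at -1 or lower. Over all tested genes 7% were lower and 3.75% higher at that p, 3.45% stood at -1 or lower and 48.8% were below 0. The 3 with the highest TPM lay nearer 0, with log2 fold changes of 0.05 for Zwint, a kinetochore linker, 0.39 for Hjurp, the chaperone of the centromeric histone, and -0.48 for Pttg1, which encodes securin. Chosen after their values were seen, Cdc25c, the phosphatase that activates CDK1, and Knl1, the kinetochore scaffold of the checkpoint, had -2.24 and -2.15. Knl1 had 0.585, 0.746 and 0.440 CPM in the knockout and 2.93, 3.81 and 1.17 CPM in the control, with no overlap. Of 17 condensin and cohesin genes all 17 were below 0, with a median of -0.42 and, as for all genes, none past the adjusted test. With an unadjusted p under 0.05, 8 of the 17 were lower and 0 higher, against 7% and 3.75% of all genes. Lower without overlap between the groups were 8 of the 17, against 9.14% of all genes. The condensin core subunits Smc4 and Smc2, also chosen after their values were seen, had -1.03 and -1.01, whereas Rad21, Pds5a and Ncaph2, the 3 with the highest TPM, had -0.23, -0.22 and -0.01.

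S-phase genes had a median near that of all genes. Of 50 listed replication genes 49 were tested; 26 were below 0 and 23 above, with a median log2 fold change of -0.01, and 1 had an unadjusted p under 0.05 as lower and 0 as higher. Scaling by total counts gave a median of -0.24, against -0.21 for all genes. Pcna, the sliding clamp of DNA polymerase, had 45.1, 53.8 and 46.9 CPM in the knockout and 48.5, 50.7 and 48.1 CPM in the control. Mcm2, a subunit of the replicative helicase, had 8.88, 9.06 and 9.51 CPM in the knockout and 10.1, 10.8 and 7.12 CPM in the control. Both overlapped, and Mcm10 and Rpa1, 2 further replication genes of high TPM, had log2 fold changes of 0.36 and 0.19. The ratio of the summed TPM of the 46 genes to that of the 49 S-phase genes was 0.284, 0.323 and 0.279 in the knockout livers, against 0.724, 1.05 and 0.488 in the controls. This ratio is free of library scaling, and its groups did not overlap; the 46 genes were chosen for being lower, so that no test of it was made.

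**Figure D4:**
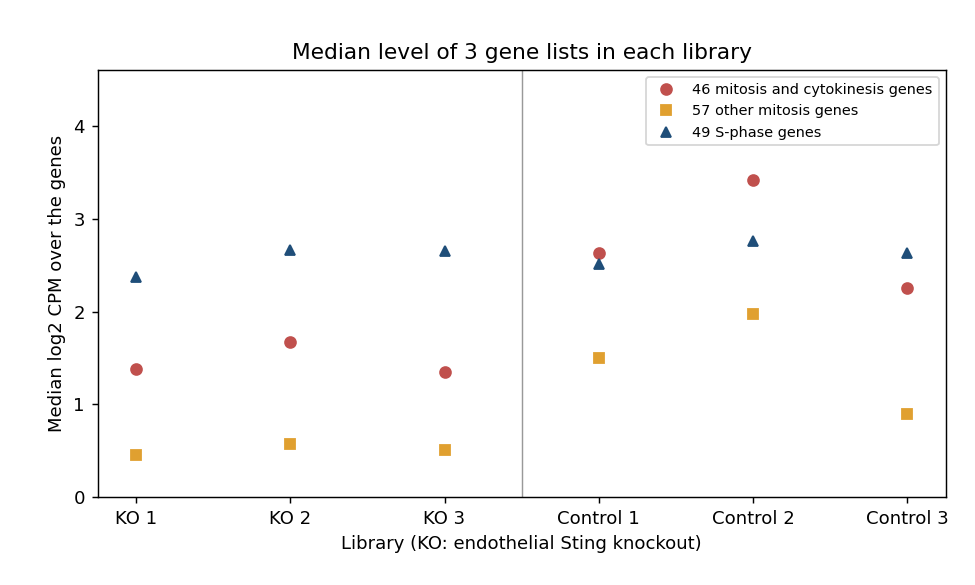
Median log2 CPM of the 46 mitosis and cytokinesis genes (circles), 57 other mitosis genes (squares) and 49 S-phase genes (triangles) in each library. The circles lie between 1.35 and 1.67 in the knockout and between 2.25 and 3.42 in the control, whereas the triangles lie between 2.37 and 2.66 in the knockout and between 2.51 and 2.76 in the control.

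The regulators around these genes had medians closer to 0. None of them passed the adjusted test in edgeR, where 0% of all tested genes did. Lower at an unadjusted p under 0.05 were 1 of 17 APC/C genes and 1 of 12 G1 genes. So were 2 of 7 inhibitors and 0 of 19 DREAM and E2F genes, against 7% of all genes. At that p 1 inhibitor was higher, where 3.75% of all genes were. Of 17 core subunits and partners of the APC/C 12 were below 0, with a median of -0.05, and Anapc5, Cdc26 and Anapc13 had log2 fold changes of -0.08, 0.07 and 0.20. Of 12 G1 cyclins and kinases 9 were below 0, with a median of -0.19; Ccnd1, the cyclin of G1 entry, had 146, 168 and 189 CPM in the knockout and 172, 134 and 125 CPM in the control, which overlapped. Ccnd3 and Cdk4 had 0.21 and -0.09. The 19 genes of the DREAM, MuvB and E2F system had a median of 0.01, with 9 below 0, the same as the median of all genes. Scaling by total counts put both medians at -0.21, and upper-quartile scaling put both at -0.01. Among them Rbbp4, a MuvB subunit, had 0.20, the pocket protein Rbl2 had 0.23 and the E2F partner Tfdp1 had 0.01. Mybl2, which encodes B-MYB, was at a low level with a mean of 0.321 TPM, and its groups overlapped. The inhibitors had a median of -0.14 over 7 tested genes, with 6 below 0. Cdkn1a, which encodes p21 and blocks cyclin-dependent kinases, was at 30.8, 30.8 and 21.9 CPM in the knockout and 45.4, 98.3 and 58.9 CPM in the control, with no overlap and a log2 fold change of -1.28. Cdkn1b and Cdkn2c, which encode p27 and p18, had -0.14 and -0.17. Wee1, the kinase that inhibits CDK1, was the 1 inhibitor above 0 and is named after its value was seen. It had 16.4, 13.8 and 17.4 CPM in the knockout and 12.6, 9.19 and 7.61 CPM in the control, with no overlap and a log2 fold change of 0.69 that did not pass adjustment. Pkmyt1, a further kinase that inhibits CDK1, also named after its value was seen, had -0.97.

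The medians of machinery that dividing and resting cells share were also nearer 0. Of 19 tubulin, septin and actomyosin genes 14 were below 0, with a median of -0.25, which was 0.04 without control replicate 2. Rhoa, the furrow GTPase, had 0.12, and the tubulins Tuba1b and Tubb2a had -0.07 and -0.37. Of 13 phosphatases of mitotic exit 10 were below 0, with a median of -0.11, and Ppp1ca, Ppp2r5a and Ppp1cc had 0.12, -0.01 and 0.01.

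**Figure D5:**
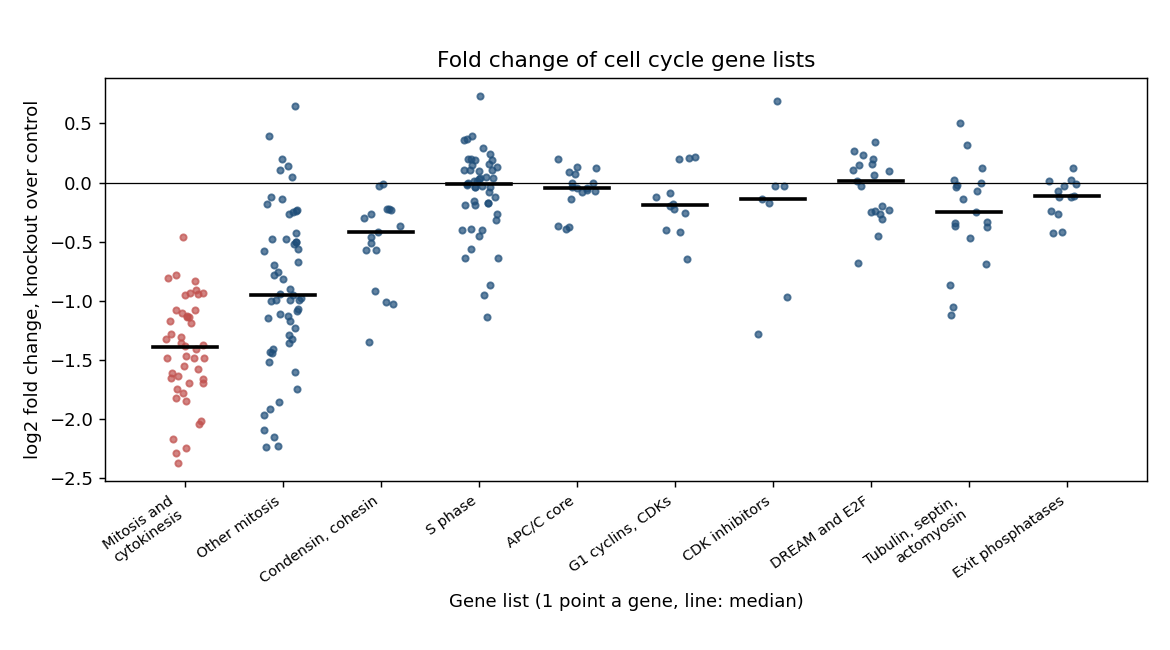
Log2 fold change of knockout over control of each tested gene in the 46 mitosis and cytokinesis genes (red) and in 9 lists of other cell cycle genes (blue), with the median of each as a line. The medians are -1.39 for the 46 genes, -0.95 for other mitosis genes (-0.53 without control replicate 2), -0.42 for condensin and cohesin and -0.01 for S-phase genes.

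The promoter elements were also set beside the fold changes, a split chosen after the data were seen. Among the 40 genes with a promoter, the 28 with both CCAAT and a CHR spelling had a median log2 fold change of -1.46 and the 12 others -1.23. Among the other tested genes, the 682 with both had a median of -0.01 and the 9598 without both one of 0.01. Of those with both 8.36%, and of those without 6.2%, were lower at an unadjusted p under 0.05. At a log2 fold change of -1 or lower the order was the other way, with 2.64% of those with both and 2.81% of those without. Among the 40 genes themselves that count was 22 of 28 with both and 10 of 12 without. Promoters with a CHR spelling within 30 bases before to 20 after the start, in 241 other tested genes, had a median of -0.04, with 10.4% lower at that p and 5.39% at -1 or lower. The other tested genes here include the other mitosis genes. Of 49 of those with a promoter, 21 held both elements and 30 a CHR spelling, and their part in these shares was not tested.

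Markers of several cell types differed between the libraries, but their order among the knockout livers was not that of the mitotic genes. The 12 cholangiocyte markers, of which none was at 0 in all libraries, summed to 664, 296 and 370 TPM in the knockout livers, against 1070, 2180 and 648 TPM in the controls, and all 11 tested had fold changes below 0. Knockout replicate 1 and control replicate 3 overlapped. Most of that sum was Spp1, at 610, 278 and 338 TPM in the knockout and 985, 2000 and 603 TPM in the control, a gene that macrophages also make; the other 11 markers summed to 53.8, 17.8 and 32.5 TPM in the knockout and 84.5, 188 and 44.6 TPM in the control. The 12 stellate cell and myofibroblast markers summed to 1000, 887 and 775 TPM in the knockout and 1390, 1990 and 962 TPM in the control, and 11 of 12 were below 0, again with knockout replicate 1 above control replicate 3. The 12 monocyte and macrophage markers summed to between 1390 and 2050 TPM in the knockout and between 1940 and 4200 TPM in the control, with 5 of 12 below 0. Spp1 stands in that list too, and the other 11 markers summed to 1440, 1580 and 1050 TPM in the knockout livers, against 1110, 2200 and 1340 TPM in the controls, so that 2 of the 3 knockout sums lay inside the control range. The 8 dendritic cell markers summed to between 12.3 and 15.8 TPM in the knockout and between 13.6 and 28.6 TPM in the control, with 7 of 8 below 0. The groups overlapped in both. In all 4 lists control replicate 2 was the highest library, as it was for the mitotic genes. Among knockout livers, replicate 2 had the highest summed mitotic level, 118 TPM, and the lowest cholangiocyte sum, 296 TPM. Knockout replicate 1 had the lowest summed mitotic level, 93.8 TPM, and the highest sum of the knockout livers in all 4 lists. Without Spp1, the monocyte and macrophage sum was highest in knockout replicate 2 among these livers. The part of these cell types in the mitotic values was not tested.

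Other lists ran differently. Fold changes were above 0 for 12 of 12 hepatocyte markers, 9 of 9 Kupffer cell markers, 11 of 12 endothelial markers and 9 of 12 T and natural killer cell markers. Their median log2 fold changes were 0.42, 0.76, 0.26 and 0.40 in turn. Directions for all cell lists come from the TMM-scaled fit only, and scaling by total counts moved the median of all genes to -0.21. T and natural killer cell sums were 47, 32 and 28.4 TPM in the knockout and 24.1, 35.3 and 22.7 TPM in the control, and Kupffer sums ran from 731 to 925 TPM in the knockout and from 452 to 762 TPM in the control. B and plasma cell, neutrophil and erythroid sums were widely spread, from 122 to 542, 30.1 to 185 and 108 to 268 TPM in the knockout and from 296 to 592, 31.1 to 64.6 and 137 to 642 TPM in the control, with 2 of 7, 2 of 6 and 4 of 6 tested markers below 0. No marker of any of the 11 lists was at 0 in all 6 libraries. Which cells carried the mitotic transcripts was not measured.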

How the data were processed

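Polyadenylated RNA from 6 mouse livers was sequenced as strand-specific libraries, per the labels' protocols. The authors deposited, per the file headers, estimated counts and TPM values per gene for each library; 6.93% of the counts were not whole, at a tolerance of 1e-09. The submitters' processing notes list RSEM 1.3.3, DESeq2 1.38.3, HISAT2 2.2.1 and fastp 0.23.2, with no roles, and the build GRCm38. The sources used here do not give the annotation, the gene filters or the use of strand in counting. For 8 of the 46 genes (Ccna2, Cdc20, Ube2c, Cdca8, Kif4, Nusap1, Kif20a and Prc1) an opposite-strand gene in the table overlaps, so reads of the pair may be mixed.

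Counts were rounded and tested in edgeR 4.0.16 (quasi-likelihood, TMM, filterByExpr, robust; R 4.3.3), knockout against control, with Benjamini-Hochberg adjustment at 0.05; 13197 genes were tested. CPM values are TMM-scaled, and log2 CPM values use a prior count of 2. A standard error is the absolute log2 fold change over the root of its F statistic. Labels call the samples biological replicates of littermates, and p-values measure the spread between these animals. Counts of each pair of libraries differed beyond sampling noise. Rows with a blank symbol (83) were kept under their gene identifier and filtered like the rest. Alternatives were DESeq2 1.42.0, limma-voom (limma 3.58.1), other scalings and filters, log2(TPM + 1) and log2(TPM + 0.1), a replicate block and each library left out in turn. The fit was tested on simulated data. Genes named with values in every library were mainly, per role, the 2 of highest TPM and those of most and least negative fold change, and, per further list, the 3 of highest TPM and the usual markers Mybl2, Cdkn1a, Ccnd1, Pcna and Mcm2; further genes (such as Ccnb1, Foxm1, Bub1b and Hmmr) were given values after these were seen. The members and lists were chosen with earlier results of these data known. Gene positions came from GENCODE M21 and promoters from RefSeq, both GRCm38. Python 3.11.15 and matplotlib 3.10.9 drew the figures.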

Additional observations from a re-analysis of the deposited data

How the results depend on the processing

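All 46 genes stayed below 0 in every fit that tested them, and no single log2 fold change reversed in 735 alternative values; the stricter filter left out Sgo1. No gene passed over all genes in the main test; 119 did in DESeq2, 21 of them mitosis and cytokinesis genes, and 5 with the replicate block, 2 of them Ckap2 and Mki67. Leaving out 1 library gave 0 to 2 genes (2 without control replicate 2, and as many without control replicate 3), 0 to 1 of the 46 (Ckap2, without control replicate 3), 31 to 44 of the 46 lower at an unadjusted p under 0.05, 35 to 45 not overlapping, and medians from -1.62 to -1.06. The lowest count and the median of -1.06 came without control replicate 2. In these fits 11.5% (without knockout replicate 3) to 17.7% (without control replicate 3) of all genes were lower without overlap. The share of all genes lower at that p is not given for these fits or for the replicate block. Replicate numbers are shared by the groups, but deviations of same-numbered libraries correlated at 0.115, -0.007 and 0.133, so the numbers were not taken as pairs; with the replicate block the median was -1.32 and 41 of the 46 were lower at an unadjusted p under 0.05. Scaling by total counts moved the median of all genes to -0.21, and log2(TPM + 1) and log2(TPM + 0.1) moved it to -0.20 and -0.23; the 46 genes then had medians of -1.67, -1.10 and -1.49. Without control replicate 2 the median of other mitosis genes was -0.53 instead of -0.95. The medians of 3 other lists changed sign. In the main fit they were 0.01 for DREAM and E2F, -0.01 for S-phase genes and -0.25 for tubulin, septin and actomyosin. The DREAM and E2F median was -0.02 in limma-voom, -0.21 in log2(TPM + 0.1) and -0.15 in log2(TPM + 1). It was -0.21 with total counts and -0.01 with upper-quartile scaling. The medians of all genes lay at the same values under the last 2, and the S-phase median was -0.24 with total counts, so under these scalings both lists moved about as far as all genes did. Leaving out 1 library, the DREAM and E2F median ran from -0.07 to 0.07 (-0.05 without control replicate 1, -0.06 without knockout replicate 3), that of the S-phase list from -0.09 to 0.04 (the highest without control replicate 2, or without knockout replicate 1), and that of the tubulin list from -0.4 to 0.04 (the highest without control replicate 2). The cause of the moves on leaving out a library was not tested. The motif shares of 77.5% were the same in a window from 150 bases before the start. Genes with few counts, such as Cdkn3, Bub1, Ndc80 and Sgo1, carry the widest counting error.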
